A study of Mus musculus with 2 samples.

Results

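The mitochondrial carrier family SLC25 was described in the gastrocnemius, the large calf muscle, of mice 10 days old. Members were the genes whose symbol is Slc25a followed by a number and which have a protein coding transcript in the GENCODE M21 annotation of mm10. This gave 47 members among 55536 named genes, 22015 of which are nuclear protein coding genes. Total RNA was sequenced from females of the strain B6CASTF1/J, an F1 hybrid between C57BL/6J and CAST/EiJ, with no treatment named in the labels. There was 1 group of 2 libraries, biological replicates 1 and 2, each made from 300 ng of RNA after reduction of ribosomal RNA and with ERCC spike-in RNAs added. The labels give both samples the same donor identifier and separate biosamples, and do not say whether each library came from 1 animal or from pooled tissue, so the SD may measure technical spread in part. With 1 group there was no contrast to test. The smallest two-sided sign-flip p that 2 libraries allow is 0.5, so no p-value is given, and values stand per library or as mean ± SD with n = 2.

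Most SLC25 proteins span the inner mitochondrial membrane, whose own permeability to charged metabolites is low, and exchange or move nucleotides, phosphate, carboxylates, amino acids, cofactors or metal ions between matrix and cytosol. In muscle the ADP/ATP and phosphate carriers feed ATP synthase and deliver its product to the contractile apparatus. The oxoglutarate/malate carrier and the calcium-regulated aspartate/glutamate carriers form the malate-aspartate shuttle, which brings reducing equivalents from glycolysis into the matrix. Levels below are TPM, a measure that divides by transcript length and gives every library the same total, from the deposited gene tables unless another table is named. Detection means a TPM of at least 1 in each library.

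The tables held 35925081 expected counts for replicate 1 and 39969380 for replicate 2. All 6 muscle markers, led by Acta1, Mylpf and Ckm, were detected, with summed TPM of 72986 and 86058. Replicate 1 also held transcripts of other tissues that were lower in replicate 2. The summed TPM of 6 bone and cartilage markers was 309 in replicate 1 and 13.0 in replicate 2, with Ibsp and Bglap at 0 counts in replicate 2. The cartilage marker Col2a1 was nearly level, at 14.7 and 11.5, and made up most of the sum in replicate 2. Summed TPM of 5 granulocyte markers was 48.1 and 0.5, with Ngp and Elane at 0 counts in replicate 2, and that of 7 erythroid markers was 1271 and 976, with Hemgn at 0 counts in replicate 2. Sums for 5 adipocyte markers were 158 and 121, and for 4 neuron markers 12.0 and 8.41. Of 5 brown fat markers 3 were detected and Ucp1 was at 0 counts in both libraries. In bulk tissue, fewer cells of a type and less RNA per cell cannot be told apart.

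The family was detected broadly, but a few members held most of its transcripts. Of the 47 members, 36 (76.6%) were detected, against 52.3% of all nuclear protein coding genes. Mean TPM was 100 or more for 4 members, between 10 and 100 for 10, and under 10 for 22 detected members. The median of mean TPM over the 36 detected members was 7.50, against 9.35 over all detected nuclear protein coding genes. Together the 47 members took 0.416% of nuclear protein coding TPM in replicate 1 and 0.448% in replicate 2 (0.432% ± 0.0224, SD, n = 2). Slc25a4 alone held 48.5% and 49.5% of the family's TPM, and the 5 highest members together held 85.3% of it on average. All 5 stood among the first 1000 nuclear protein coding genes by mean TPM, with Slc25a4 at rank 37, Slc25a3 at 124, Slc25a12 at 430, Slc25a11 at 461 and Slc25a5 at 613. Of the 11 members not detected, 3 had no count in either library and 8 had counts.

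**Figure D1:**
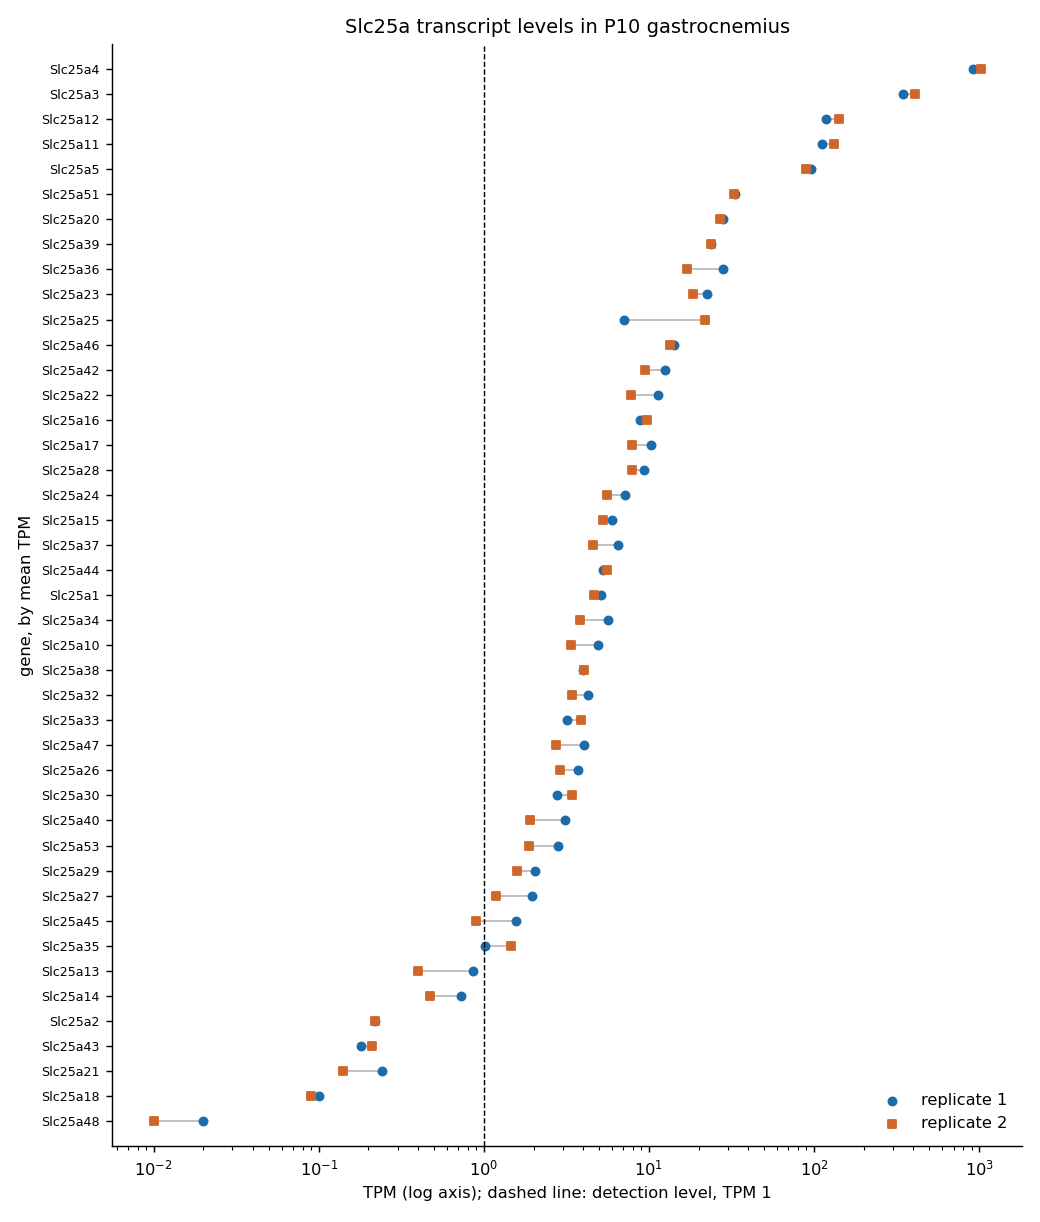
TPM of each of 43 members with counts (log axis), 1 row a gene ordered by mean TPM, with a circle for replicate 1 and a square for replicate 2. The dashed line marks TPM 1. Slc25a4 stands near 1000 TPM in both libraries, most members lie between 1 and 30, and the 2 symbols of Slc25a25 lie furthest apart among the detected members.

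The ADP/ATP carriers exchange matrix ATP for cytosolic ADP and took 53.7% ± 0.172 of the family's TPM (SD, n = 2). Slc25a4, the form known from heart and skeletal muscle (chromosome 8, 46206797 to 46211284, minus strand), stood at TPM 917 in replicate 1 and 1028 in replicate 2. Slc25a5, the form known from proliferating and many other cells (chromosome X, 36795651 to 36798807, plus strand), stood at 96.3 and 90.0. Slc25a4 was thus higher in both libraries, and the log2 ratio of Slc25a5 over Slc25a4 was -3.38 ± 0.18 (SD, n = 2), a 10.4-fold difference. The third member, Slc25a31, is known from the testis and had 0 counts in each library, a floor of 0.0835 and 0.0751 CPM (3 counts per library, counting error only). No fold was computed for Slc25a31.

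The coding sequences of Slc25a4 and Slc25a5 are alike, so it was checked whether reads could be moved between them. Over 894 aligned coding bases 692 were identical (77.4%). Their longest shared run, printed because a read longer than it can tell the genes apart, has 20 bases and is written in lower case.
shared run of Slc25a4 and Slc25a5: cagttctggcgctactttgc
No 31-base word of the leading Slc25a4 transcript occurred in a transcript of any other gene. In contrast, 812 of the 1210 words of the leading Slc25a5 transcript (67.1%) occurred in 13 other genes, all annotated as processed pseudogenes, which are gene copies made from spliced RNA. These 13 genes were assigned a summed TPM of 0.17 in replicate 1 and 0.21 in replicate 2, against 96.3 and 90.0 for Slc25a5 itself.

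The phosphate carrier Slc25a3 imports the phosphate that ATP synthase consumes (chromosome 10, 91116574 to 91124059, minus strand). It stood at TPM 344 in replicate 1 and 409 in replicate 2, and held 18.9% ± 1.07 of the family's TPM (SD, n = 2). Its transcripts carry 1 of 2 alternative forms of the third exon. The first in transcript order has 125 bases and belongs to the form known as A, which is known from heart and skeletal muscle, and the other has 122 bases and belongs to form B, known from most tissues. Both exons are printed 5′ to 3′ on the transcript strand, from the GENCODE M21 transcripts, because they set the muscle form of the protein apart from the general one. Capitals mark bases that differ between the exons or have no partner in their alignment.
Slc25a3 125-base exon, chr10:91122207-91122331, minus strand: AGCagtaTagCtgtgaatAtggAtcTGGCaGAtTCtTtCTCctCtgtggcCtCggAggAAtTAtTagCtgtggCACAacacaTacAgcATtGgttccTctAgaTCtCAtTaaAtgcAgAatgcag
Slc25a3 122-base exon, chr10:91121922-91122043, minus strand: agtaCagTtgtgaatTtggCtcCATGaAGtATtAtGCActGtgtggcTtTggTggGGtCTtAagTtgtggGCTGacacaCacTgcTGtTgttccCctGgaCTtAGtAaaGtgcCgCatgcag
Of 122 aligned bases 77 were identical (63.1%), and the coding sequences that contain them have 1074 and 1071 bases. Transcripts with the 125-base exon had TPM 296 in replicate 1 and 366 in replicate 2, and those with the 122-base exon 37.7 and 38.8. The form with the 125-base exon was thus the higher in both libraries, 7.85-fold in replicate 1 and 9.44-fold in replicate 2, with 89.6% ± 1.21 of the TPM of forms with either exon (SD, n = 2). Kallisto-format tables, from a second way of dividing reads among transcripts, gave 77.0% ± 2.27 (SD, n = 2).

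**Figure D2:**
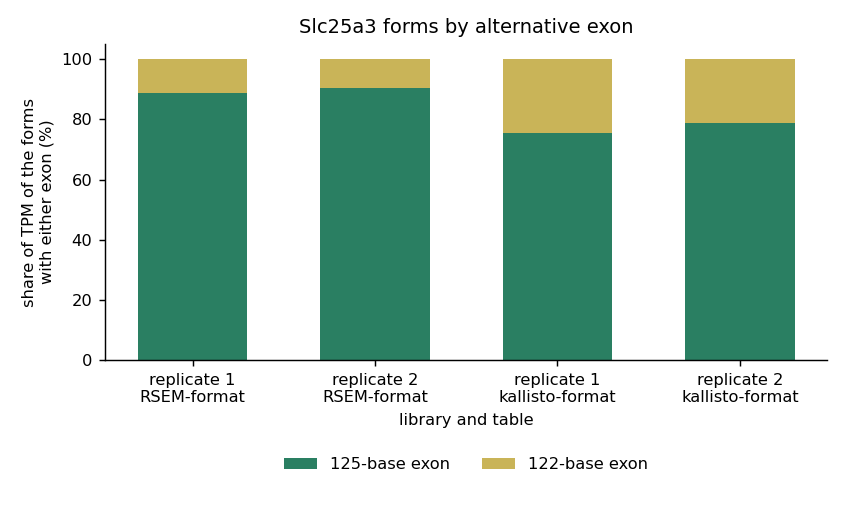
Share (%) of the TPM of Slc25a3 forms held by transcripts with the 125-base exon (green) or the 122-base exon (yellow), 1 bar for each library in each of the 2 kinds of table. The 125-base exon holds 88.7% and 90.4% in the RSEM-format tables and 75.4% and 78.6% in the kallisto-format tables.

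Aspartate/glutamate and glutamate carriers together held 7.06% ± 0.184 of the family's TPM (SD, n = 2), nearly all of it from Slc25a12. Slc25a12 encodes aralar, the aspartate/glutamate carrier known from muscle and brain (chromosome 2, 71271063 to 71367749, minus strand), and stood at TPM 119 in replicate 1 and 141 in replicate 2. Its relative Slc25a13 encodes citrin, known from liver, and stood at 0.86 and 0.40. The log2 ratio of Slc25a13 over Slc25a12 was -7.76 ± 0.94 (SD, n = 2). Slc25a22, which moves glutamate with a proton, stood at 11.4 and 7.82, and its relative Slc25a18 at 0.10 and 0.09, a log2 ratio of Slc25a18 over Slc25a22 of -6.49 ± 0.28 (SD, n = 2). In each of these pairs 1 gene was above detection in both libraries and the other below it in both.

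The form of Slc25a12 that was counted matters for these levels. The transcript with the highest share was Slc25a12-207, which is annotated as a target of nonsense-mediated decay, the pathway that removes RNAs with an early stop codon. It held 76.3% of the gene's abundance in replicate 1 and 77.8% in replicate 2, with 5868 and 8076 expected counts, while the full coding transcript Slc25a12-206 held 9.35% and 10.2%. Slc25a12-207 lacks the fourth exon of Slc25a12-206, which has 116 bases, not a multiple of 3, and ends in a last exon of 664 bases where that of Slc25a12-206 has 4291. How reads of sequence that both forms share were divided was not tested, and the shares of both forms and the values for coding transcripts alone depend on it. The skipped exon is printed in lower case, 5′ to 3′ on the transcript strand, since it is what sets these forms apart in the coding sequence.
Slc25a12 exon absent from Slc25a12-207, chr2:71333605-71333720, minus strand: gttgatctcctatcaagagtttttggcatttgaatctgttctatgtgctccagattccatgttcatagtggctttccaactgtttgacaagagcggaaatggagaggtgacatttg
In the kallisto-format tables Slc25a12-207 still led, with 48.8% and 40.1%, and Slc25a12-206 held 10.8% and 8.79%. With protein coding transcripts alone the share of the whole substrate group was 1.05% of the family's TPM, and the log2 ratio of Slc25a13 over Slc25a12 was -4.48.

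Carriers of di- and tricarboxylates and oxoacids held 6.58% ± 0.196 of the family's TPM (SD, n = 2). Slc25a11, the oxoglutarate/malate carrier (chromosome 11, 70644196 to 70647479, minus strand), stood at TPM 112 in replicate 1 and 131 in replicate 2. Slc25a1, which exports citrate for lipid synthesis, stood at 5.10 and 4.64, and Slc25a10, the dicarboxylate carrier, at 4.93 and 3.38. Slc25a21, the oxoadipate carrier of lysine breakdown, stood at 0.24 and 0.14, below detection. All 3 were lower than Slc25a11 in both libraries. The log2 ratio to Slc25a11 was -4.64 ± 0.26 for Slc25a1, -4.89 ± 0.55 for Slc25a10 and -9.29 ± 0.69 for Slc25a21 (SD, n = 2). Both shuttle carriers, Slc25a11 and Slc25a12, thus stood above TPM 100 in both libraries when all transcripts of each gene were counted. The full coding transcript Slc25a12-206 stood at TPM 11.1 and 14.4. All 7 enzymes of the malate-aspartate and glycerol phosphate shuttles were detected as well, led by Mdh2 at TPM 360 and 454, Mdh1 at 186 and 223, and Gpd1 at 158 and 185.

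ATP-Mg/phosphate carriers adjust the adenine nucleotide content of the matrix, and all but the short form Slc25a41 carry a regulatory domain that binds calcium. The group held 2.07% ± 0.183 of the family's TPM (SD, n = 2). Slc25a23 stood at TPM 22.6 in replicate 1 and 18.4 in replicate 2, and Slc25a24 at 7.12 and 5.58. Slc25a25 stood at 7.11 and 21.8, with 543 and 1743 expected counts, and changed place with Slc25a23 between the libraries. Slc25a41 had 0 counts in both libraries. Slc25a24 was lower than Slc25a23 in both libraries, with a log2 ratio of -1.69 ± 0.04 (SD, n = 2). The size of this ratio depended on the measure, with -0.64 by expected counts and -2.18 by kallisto-format TPM. A short transcript of 598 bases, Slc25a23-206, held 57.5% and 60.0% of the abundance of Slc25a23. The longer coding transcript Slc25a23-201 stood at TPM 7.89 and 6.51. The log2 ratio of Slc25a25 over Slc25a23 was -0.71 ± 1.35 (SD, n = 2), smaller than its own spread, so no direction was called. Members with the calcium-binding domain have long coding sequences: Slc25a12 has 677 codons, Slc25a13 676, Slc25a25 514, Slc25a24 475 and Slc25a23 467. Slc25a41 has 312, and the 41 members not listed here have 265 to 473. The longest of these, Slc25a54 at 473, lies above Slc25a23, and whether it carries the domain was not examined.

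Among the carriers of acylcarnitine, ornithine, basic and branched-chain amino acids and glycine, Slc25a20 was the highest. It carries acylcarnitines into the matrix in exchange for carnitine, which fatty acid oxidation requires, and stood at TPM 28.2 in replicate 1 and 26.8 in replicate 2. All 5 enzymes of the carnitine shuttle were detected, led by Crat at 101 and 110, Cpt1b, the muscle form of the outer membrane enzyme, at 98.2 and 93.2, and Cpt2 at 20.4 and 23.2. Slc25a15, the ornithine carrier, stood at 5.95 and 5.28. Slc25a29, a carrier of basic amino acids, stood at 2.03 and 1.59, and Slc25a2, a second ornithine carrier, at 0.22 in both libraries. Both were lower than Slc25a15 in both libraries, with log2 ratios of -1.64 ± 0.13 for Slc25a29 and -4.61 ± 0.12 for Slc25a2 (SD, n = 2). Slc25a44, which carries branched-chain amino acids, stood at 5.25 and 5.54. Slc25a38, the glycine carrier needed for heme synthesis, stood at 3.96 and 4.03.

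All 7 cofactor carriers in the annotation were detected, and together they held 4.42% ± 0.522 of the family's TPM (SD, n = 2). Slc25a51, the NAD carrier, led with TPM 33.4 in replicate 1 and 32.9 in replicate 2. The coenzyme A carrier Slc25a42 stood at 12.6 and 9.48, and its relative Slc25a16 at 8.78 and 9.73. The log2 ratio of Slc25a16 over Slc25a42 was -0.24 ± 0.39 (SD, n = 2), so no direction was called. The peroxisomal carrier Slc25a17 stood at 10.3 and 7.93. Lowest of the group were Slc25a32, linked to folate and FAD transport, at 4.28 and 3.44, and Slc25a26, which imports S-adenosylmethionine, at 3.70 and 2.91.

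Iron, glutathione and pyrimidine carriers came in pairs with 1 higher member each. Slc25a39, a glutathione carrier, stood at TPM 23.7 in both libraries, and its relative Slc25a40 at 3.08 and 1.91. The log2 ratio of Slc25a40 over Slc25a39 was -3.28 ± 0.49 (SD, n = 2). For the pyrimidine nucleotide carriers, Slc25a36 stood at 28.0 and 17.0 and Slc25a33 at 3.21 and 3.85, a log2 ratio of Slc25a36 over Slc25a33 of 2.63 ± 0.69 (SD, n = 2). The iron importers lay closer together. Slc25a28, mitoferrin 2, known from many tissues, stood at 9.38 and 7.93, and Slc25a37, mitoferrin 1, known from red cell precursors, at 6.51 and 4.59. Slc25a37 was lower in both libraries, with a log2 ratio of -0.66 ± 0.18 (SD, n = 2), a direction that held only per length: by expected counts the ratio was 0.87. Slc25a37 was among the members lower in replicate 2 by scaled counts, with a log2 ratio of -0.30, as were the erythroid markers (all 4 whose mean count reached 100 were lower, and 3 of 7 were detected). The part of red cell precursors in the level of Slc25a37 was not tested.

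The carriers related in sequence to uncoupling proteins were low. Slc25a30 stood at TPM 2.78 in replicate 1 and 3.44 in replicate 2, Slc25a27 at 1.97 and 1.18, and Slc25a14 at 0.73 and 0.47. Slc25a14, below detection, was the lowest in both libraries, with log2 ratios of 2.38 ± 0.66 for Slc25a30 over it and 1.36 ± 0.08 for Slc25a27 over it (SD, n = 2). The uncoupling proteins themselves belong to the same protein family but carry other symbols. Ucp2 stood at 68.8 and 51.5, Ucp3, known from skeletal muscle, at 34.1 and 35.0, and Ucp1, the brown fat protein, at 0 counts. Mtch1 and Mtch2, carrier homologs of the outer membrane, stood at 97.7 and 83.1 and at 67.6 and 74.2. Slc25a46, the outer membrane member that acts in mitochondrial shape, stood at 14.2 and 13.5.

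Members without a settled substrate numbered 8 and held 0.669% ± 0.198 of the family's TPM (SD, n = 2), and 4 of them were detected. Slc25a34 stood at TPM 5.66 in replicate 1 and 3.80 in replicate 2 and its relative Slc25a35 at 1.01 and 1.45, a log2 ratio of Slc25a35 over Slc25a34 of -1.93 ± 0.77 (SD, n = 2). Slc25a47, known from liver, stood at 4.05 and 2.75, and Slc25a53 at 2.83 and 1.87. Slc25a45, at 1.57 and 0.90, passed TPM 1 in replicate 1 only. Slc25a43 stood at 0.18 and 0.21, Slc25a48 at 0.02 and 0.01 and Slc25a54 at 0 counts. Of the 4 detected members, Slc25a47 and Slc25a53 had little protein coding transcript: coding transcripts held 21.5% and 18.2% of the TPM of Slc25a47 and 12.0% and 13.9% of that of Slc25a53.

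**Figure D3:**
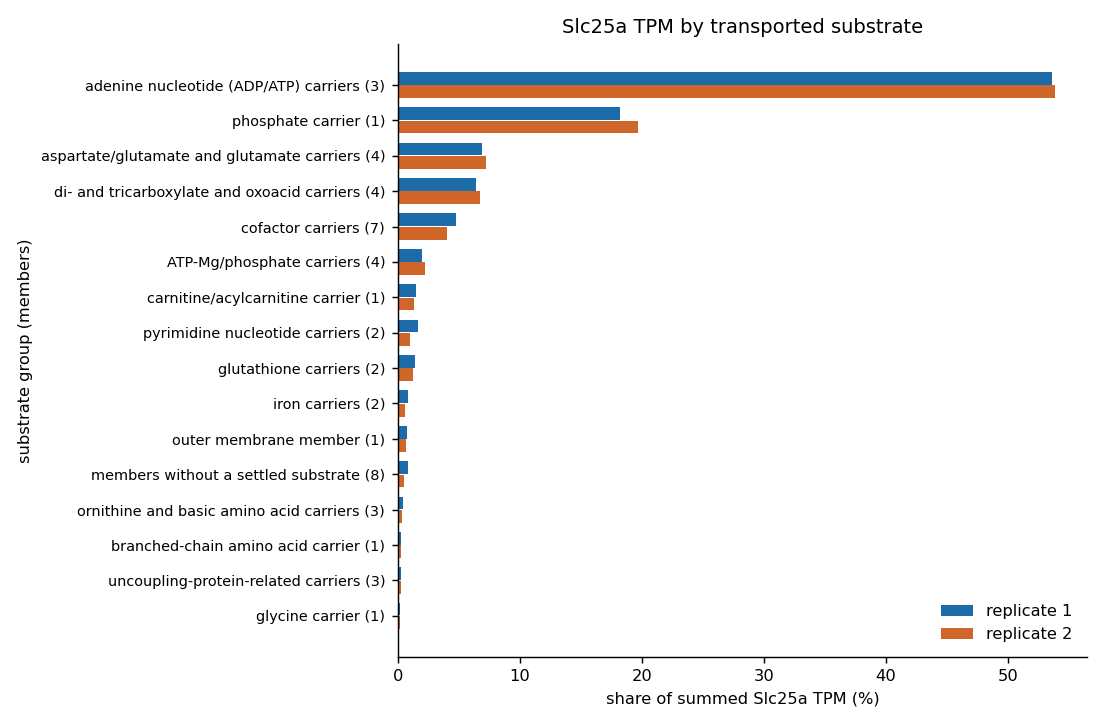
Share (%) of the family's summed TPM for each of 16 substrate groups, with the number of members in brackets, as 1 bar for each library. The ADP/ATP carriers hold 53.6% in replicate 1 and 53.8% in replicate 2, the phosphate carrier 18.2% and 19.7%, and no other group more than 7.19%.

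Across the family, most of the chosen pairs of related carriers differed in level. Of 22 pairs of relatives with both genes in the annotation, 2 had a member at 0 counts (Slc25a31 beside Slc25a4, Slc25a41 beside Slc25a23) and got no ratio. A pair was given a direction if its log2 ratio had 1 sign throughout and a mean larger than its SD. This held for 18 of the other 20 pairs, and in 10 of these the genes differed at least 4-fold in both libraries. Pairs named against Slc25a44 were also called, with log2 ratios of -7.79 ± 0.47 for Slc25a48, -2.17 ± 0.62 for Slc25a45 and -0.69 ± 0.45 for Slc25a47 (SD, n = 2). The ratio of Slc25a47 over Slc25a44 was -3.01 with protein coding transcripts alone. Several pairs share a gene, so the counts are not of independent pairs. Pairs of unrelated genes were not counted, so whether related carriers differ more or less than other genes was not tested. Identity of the coding sequences ranged from 55.6% for Slc25a21 and Slc25a11 to 77.4% for Slc25a5 and Slc25a4.

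**Figure D4:**
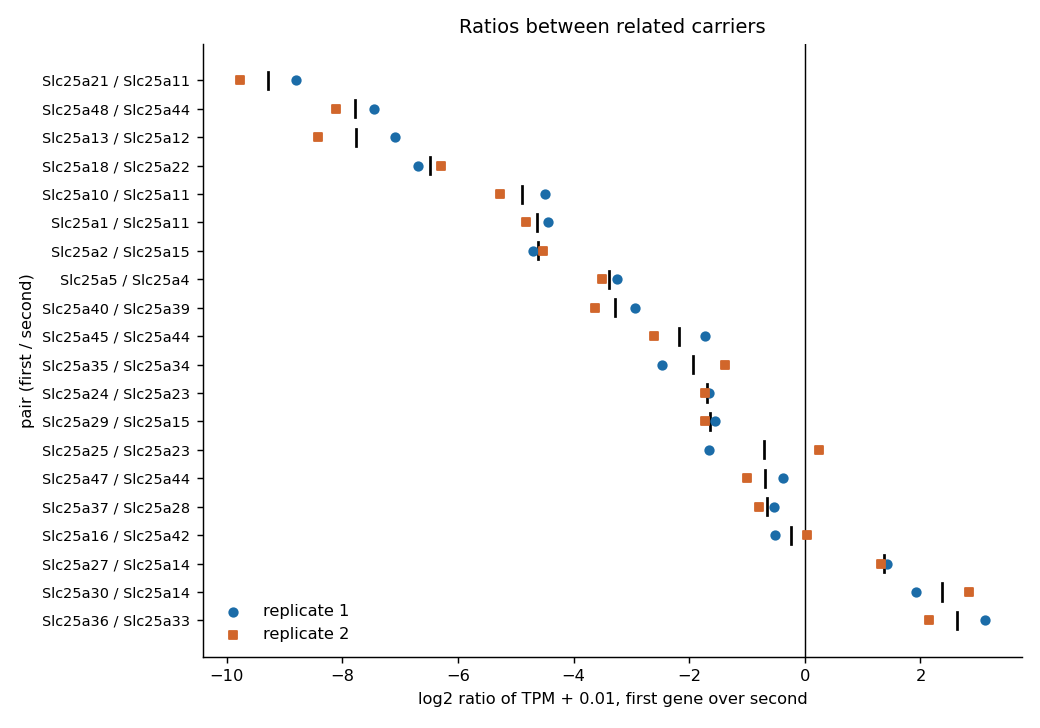
Log2 ratio of TPM + 0.01 of the first gene over the second for 20 pairs of related carriers, with a circle for replicate 1, a square for replicate 2 and a vertical tick at their mean. Only Slc25a25 over Slc25a23 and Slc25a16 over Slc25a42 have symbols on both sides of 0, and the ratio of Slc25a5 over Slc25a4 lies at -3.25 and -3.51.

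The libraries were then set side by side, with 1 library on each side and hence no test. Log2 ratios of replicate 2 over replicate 1 used TMM scaling of expected counts, for genes whose mean count reached 100, as it did for 33 members. Of these, 20 were higher and 13 lower in replicate 2, while 63.0% of nuclear protein coding genes were higher. The median over the members was 0.18, against 0.08 over all genes. The count depends on the scaling. With library totals, which move all genes by -0.24, it was 12 of 33, against 25.6% of nuclear protein coding genes, and with spike-in totals, which move them by -0.39, 6 of 33, against 9.24%. The 4 members at TPM 100 or more, Slc25a12, Slc25a11, Slc25a3 and Slc25a4, were all higher in replicate 2, at 0.44 to 0.57, and were still higher with spike-in totals. Of nuclear protein coding genes at TPM 100 or more, 93.3% were higher by TMM, with a median of 0.33, and 37.5% with spike-in totals. The muscle markers were higher in 6 of 6 cases, with a median of 0.54.

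Slc25a25 stood apart from the other members in this comparison. It was the only member past 2-fold in either direction, a limit that 0.213% of all genes and 0.161% of nuclear protein coding genes passed upward and 0.808% of all genes downward. Its log2 ratio was 1.77, with a 95% counting interval of 1.63 to 1.91 (exact binomial, counting error only), or 3.41-fold. Only 1 nuclear protein coding gene of 11158 had a higher ratio. The next member was Slc25a12 at 0.57, and the lowest was Slc25a27 at -0.50. Every scaling kept Slc25a25 past 2-fold, with 1.76 by DESeq2 size factors, 1.53 by library totals, 1.38 by spike-in totals and 1.82 by kallisto-format counts. The bone, granulocyte and erythroid markers were lower in replicate 2, and the muscle markers were higher by less than Slc25a25. Whether tissue content has a part in the difference of Slc25a25 was not tested. Since each side holds 1 library, this difference describes these samples.

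**Figure D5:**
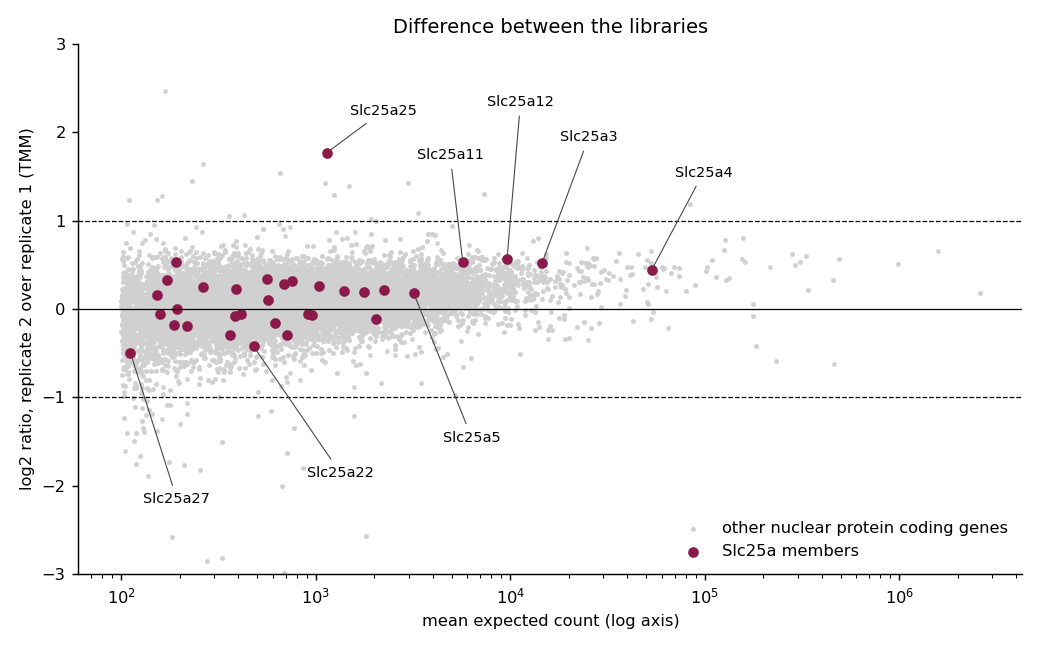
Log2 ratio of replicate 2 over replicate 1 (TMM scaling) against mean expected count (log axis) for nuclear protein coding genes whose mean count reached 100 (grey) and 33 Slc25a members (dark red). Dashed lines mark 2-fold, and 18 genes lie outside the axis limits. Slc25a25 at 1.77 is the only member past a dashed line, and the 4 members with the highest TPM lie between 0.44 and 0.57.

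Transcripts of Slc25a25 begin at several annotated starts (chromosome 2, minus strand), and 3 of these hold a RefSeq promoter. At the start furthest upstream, position 32451470, transcripts had TPM 3.38 in replicate 1 and 9.76 in replicate 2, with 303 and 996 expected counts. At the middle start, position 32431151, TPM was 1.40 and 1.36, with 116 and 138 expected counts. At the start furthest downstream, position 32424066, it was 1.66 and 6.98, with 114 and 546 expected counts. In these tables the outer starts were thus higher in replicate 2, and TPM at the middle start was level. The kallisto-format tables gave 5.28 and 15.2 TPM, 4.82 and 6.97 TPM, and 1.21e-06 and 2.57 TPM at these 3 starts, so that the downstream start was near 0 in replicate 1 there. The middle start was also higher in replicate 2 in those tables, with 178 and 364 estimated counts.

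The promoter of the downstream start is printed because, of these 3 starts, it alone holds the motif TGACGTCA. This motif was searched after the sequence had been seen, so it is no independent ground for the choice. A link between the motif and the levels was not tested. In the RSEM-format tables the downstream start had the largest ratio of TPM between the libraries, 4.20 against 2.89 at the upstream start. The promoter runs from 250 bases before to 50 bases after the start and is taken from RefSeq on GRCm38.p6, 5′ to 3′ on the transcript strand. Capitals mark TGACGTCA, the palindrome known as the full cAMP response element.
Slc25a25 promoter, chr2:32424017-32424316, minus strand: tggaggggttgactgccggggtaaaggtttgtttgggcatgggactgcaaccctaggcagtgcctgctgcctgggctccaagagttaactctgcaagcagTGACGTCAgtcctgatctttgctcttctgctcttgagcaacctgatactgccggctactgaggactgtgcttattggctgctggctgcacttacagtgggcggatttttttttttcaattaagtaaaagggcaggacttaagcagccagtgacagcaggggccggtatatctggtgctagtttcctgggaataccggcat
TGACGTCA was searched on both strands. It occurred in 1.79% of 32851 promoters of this length and in 2 of 46 member promoters, those of Slc25a25 and Slc25a36. Slc25a36 had a log2 ratio of -0.12 between the libraries. Other motifs searched on both strands were TATAAA, found in 13.6% of all promoters and in those of Slc25a18 and Slc25a21 among members, TCAAGGTCA (estrogen-related receptors) in 0.423%, GCGCATGCG (nuclear respiratory factor 1) in 1.75% and CTATTTATA (MEF2) in 0.429%. The last 3 were found in 0 of 46 member promoters, which says only that these letters are not in these windows. The 46 promoters belong to 36 member genes and had a median GC content of 59.3%, against 52.7% over all promoters.

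Genes that act beside the carriers were detected throughout. All 13 genes of the import route through TIM22, which inserts carriers into the inner membrane, were detected, led by Timm8b at TPM 61.8 in replicate 1 and 68.6 in replicate 2, Tomm20 at 50.6 and 57.5 and Timm13 at 50.1 and 53.9. All 13 were higher in replicate 2 by TMM (median 0.32) and 3 with spike-in totals, against 63.0% and 9.24% of nuclear protein coding genes. For such genes at TPM 100 or more the shares were 93.3% and 37.5%. These are the nearer comparison for the pores and for most ATP synthase genes below. The outer membrane pores Vdac1, at 451 and 517, Vdac3, at 136 and 149, and Vdac2, at 137 and 139, lie on the path of metabolites to the carriers, and all 3 were higher in replicate 2, 2 of them also with spike-in totals. All 15 ATP synthase genes matched in the annotation were detected, 14 of them higher in replicate 2 by TMM (median 0.43) and 9 with spike-in totals, led by Atp5b at 1588 and 1819, Atp5a1 at 680 and 803 and Atp5g3 at 635 and 684. Pyruvate enters through a carrier outside the family, with Mpc1 at 91.2 and 107 and Mpc2 at 65.4 and 72.6, both higher in replicate 2 under TMM and spike-in scaling. The 5 sideroflexins, a separate family of inner membrane transporters, were all detected with summed TPM of 21.1 and 17.3, led by Sfxn3 at 10.7 and 9.84. Of the 4 sideroflexins whose mean count reached 100, 3 were lower in replicate 2 by TMM (median -0.26) and 0 were higher with spike-in totals.

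Which transcript led each detected member was mostly the same in both libraries. For 33 of 36 members the leading transcript was protein coding, and for the other 3, Slc25a12, Slc25a47 and Slc25a53, it was of another type. The leader was the same in both libraries for 33 members and not for Slc25a40, Slc25a47 and Slc25a51. It held 75% or more of the gene's abundance for 20 members and under 50% for 9. Slc25a4-201 held 97.7% and 97.9%, Slc25a11-201 92.4% and 95.0%, Slc25a20-201 98.2% and 98.9% and Slc25a5-201 98.9% and 99.5%, so these 4 genes were near single-form in the RSEM-format tables. In the kallisto-format tables Slc25a11-201 held 81.1% and 66.7%. Slc25a36, with leading transcript Slc25a36-202 at 27.3% and 43.6%, was split among many forms, and protein coding transcripts held 57.2% and 71.4% of its TPM. The same transcript led in the kallisto-format tables for 31 members, and another for 5, among them Slc25a22, Slc25a36, Slc25a42 and Slc25a51. Such counts were not made over all detected genes, so whether carriers differ from other genes in this was not tested.

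Among detected members, the levels of 2 differed most between the kinds of table. Among detected genes kallisto-format TPM was generally higher than RSEM-format TPM, with a median log2 ratio of 0.54 over nuclear protein coding genes and 0.55 over the 36 members, whose ratios ranged from 0.15 to 1.25. A 2-fold higher kallisto-format value was found for 2 members, against 7.71% of genes, and a 2-fold lower one for 0, against 0.443%. Slc25a16 had kallisto-format TPM of 19.1 and 24.9 (log2 ratio 1.25), and Slc25a39 had 45.5 and 53.9 (1.07). Relative to the median shift, 0 members differed 2-fold, against 1.53% of genes.

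Sequence shared with other genes touched few members. For 31 members no 31-base word of the leading transcript occurred in another gene, and for 41 the share was under 5%. Beside Slc25a5, the members at 5% or more were Slc25a40 with 14.0%, Slc25a36 with 13.6%, Slc25a37 with 9.07%, Slc25a3 with 8.39% and Slc25a51 with 6.25%. The levels of these 6 can depend on how reads with several matches were divided.

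Members that lie side by side on a chromosome were also compared in level, and other neighbouring genes were not counted. Of pairs of members less than 100 kb apart, Slc25a29 and Slc25a47 stand head to head on chromosome 12 with 162 bases between the genes, at mean TPM 1.81 and 3.40. This gap is measured from the outer bound of Slc25a47 at position 108836046, while its RefSeq promoter has its start at 108851129. Coding transcripts held 21.5% and 18.2% of the TPM of Slc25a47. By mean expected count Slc25a29 was the higher of the 2, at 98.5 against 80. The other pairs lie on 1 strand each. Slc25a41, at 0 counts, is 2.06 kb from Slc25a23, at mean TPM 20.5, on chromosome 17. Slc25a54, also at 0 counts, is 6.46 kb from Slc25a24, at 6.35, on chromosome 3. On chromosome X, Slc25a43, at 0.195, is 18.4 kb from Slc25a5, at 93.1.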

How the data were processed

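Total RNA libraries of 2 biological replicates, 1 group per the labels, were analysed. Per the file headers, each has RSEM-format gene and transcript tables with expected counts, TPM and percent of gene abundance per transcript, and a kallisto-format transcript table with estimated counts and TPM. Build and annotation are mm10 and GENCODE M21, per the labels and the text deposited with the tables. The aligner and the counter were not given in the sources used here. In deposited expected counts, reads matching several transcripts are divided by a model. TPM values in the deposited tables divide by effective length and sum to the same total in each library. Deposited percent values give each transcript's share of its gene.

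Computed here were shares, within-library log2 ratios (pseudocount 0.01 TPM) and, from expected counts rounded to whole numbers, TMM log2 CPM ratios (edgeR 4.0.16, R 4.3.3, prior count 0.5). Alternatives were DESeq2 1.42.0 size factors and scaling by library or spike-in totals. The ratio was tested on simulated data over 11760 genes. The 2-fold limit was passed by 100% of genes changed 4-fold and 0.199% of unchanged genes. Of genes changed 2-fold, 54% of those raised and 44% of those lowered passed it. These shares depend on the spread set in the simulation. Both simulated libraries had the same mean counts before the changes, so differences in depth or tissue content were not imitated. Spike-ins held 0.720% and 0.798% of counts. Rows that name no gene held 1.38e-05% and 5.00e-06% and were left out. Kallisto-format tables held 35532610 and 39103802 estimated counts. Values were computed with Python 3.11.15, pandas 2.3.3, scipy 1.17.1 and Biopython 1.88.

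The members and lists were chosen with earlier results of these data known. Every member could be named, with values per library for the 15 highest, members of pairs, members past 2-fold and members at 0. Other genes were named from lists as their leading 3 or members at 0, apart from Col2a1. Of 48 carrier symbols assigned to substrates, Slc25a52 was not matched in the annotation. No amino acid sequence was used here, and the values of 1 member are not reported here, though it is included in counts and sums. Intervals and floors cover counting error only.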

Additional observations from a re-analysis of the deposited data

How the results depend on the processing

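The family's share of nuclear protein coding TPM was 0.408% in the kallisto-format tables and 0.360% when taken over expected counts. By kallisto-format TPM, expected counts and protein coding transcripts alone, in that order, the ADP/ATP carriers held 52.3%, 53.3% and 58.2% of the family, the phosphate carrier 17.5%, 13.7% and 20.5%, the aspartate/glutamate and glutamate carriers 8.70%, 9.56% and 1.05%, and the di- and tricarboxylate carriers 7.85%, 5.76% and 7.03%. The 125-base exon of Slc25a3 held 77.0% by kallisto-format TPM. Slc25a37 over Slc25a28 reversed to a log2 ratio of 0.87 by expected counts, which are not per length. In settings chosen after seeing the data, 12 members were higher in replicate 2 with library totals and 6 with spike-in totals, and 0 members were 2-fold apart between the table formats relative to the median. Apart from the effect of coding transcripts alone on Slc25a12 and that of length, the cause was not tested. Over all results and alternatives 364 values stayed within their spread or limit, 151 moved by more and 1 reversed. A value of 1 library always lies within the SD of both, so such rows could only stay. Reversal was counted only for pairs with a direction and for members past 2-fold. Other changes of sign are in the first 2 counts, such as Slc25a5 between libraries, at 0.18 by TMM and -0.21 with spike-in totals. With 1 library left out a pair has no spread, so no direction could be called. No paired analysis was possible because there is 1 group. Depth limits the 14 members with a mean count under 100, whose ratios between libraries are not given.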
